A study of Mus musculus with 12 samples.

Results

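A set of 10 genes of adipocyte differentiation were followed through mouse embryonic fibroblasts (MEFs) that had been treated to activate germ cell genes. They were Pparg, Cebpa, Adipoq, Retn, Cidec, Plin1, Plin4, Fabp4, Lpl and Mrap, 10 of the 19711 genes that could be named on the arrays. They were chosen by their measured differences between treated and control MEFs in earlier results of these data, so those differences are given as a description. The OS-treated MEFs received Oct4 and Sox2 vectors, and the OCKS-treated MEFs a tandem vector of Oct4, c-Myc, Klf4 and Sox2. Both also received Dnmt1 siRNA, the compounds tranylcypromine, BIX-01294 and DZNep (chem), and VPA with an ALK5 inhibitor (VA5), and were collected after 4 days. ALK5 is a TGF-β receptor, VPA inhibits histone deacetylases, and the chem compounds act on histone methylation. Treated and control MEFs were male, from C57BL6/J (Vasa::RFP Tg) mice crossed with C57BL6/J (Oct4_delta_PE-GFP Tg) mice. The PGCs were female primordial germ cells from genital ridges at E15.5, of a cross of MCH with C57BL6/J (Oct4_delta_PE-GFP Tg) mice. There were 3 arrays for each of the 4 groups. Every component of a cocktail was given at once, so the parts of Dnmt1-KD, the vectors and the compounds cannot be told apart, and the sources used here do not say which medium or control transfection the control MEFs of the arrays had. The replicates are called biological in the methods, with no separate cultures or litters named in the labels, so the p-values measure the spread between these samples.

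A fibroblast-like progenitor becomes a fat cell through a relay of transcription factors. Cebpb and Cebpd come early and lead to Pparg and Cebpa, which sustain each other and switch on the genes of the mature cell. That cell takes fatty acids from the blood, joins them into triglyceride, stores the triglyceride in a lipid droplet coated with proteins, and releases hormones. MEFs are a classical source of fat cells in culture when they are given inducers such as insulin, a glucocorticoid and a cAMP-raising drug, and TGF-β is known to restrain the process.

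Levels are given as scaled signals, in which 100 is the 75th percentile of the spots of that array, and a difference is a difference of mean log2 levels. Of the 43020 spots per array, 71.9% to 85.6% exceeded background clearly and 0 were saturated. A gene rose or fell where it changed at least 2-fold with a limma p, adjusted by Benjamini-Hochberg over all genes tested, under 0.001. At these thresholds 10.6% of genes rose and 12.4% fell in OS-treated against control MEFs, 11.1% rose and 13.7% fell in OCKS-treated against control MEFs, and 30% rose and 26% fell in PGCs against control MEFs. Dnmt1, the siRNA target, gave 7.76, 11.8 and 9.62 in OCKS-treated MEFs and 13.9, 11.7 and 9.87 in OS-treated MEFs, against 47.8, 55.2 and 43.0 in control MEFs. The Pou5f1 probe was lower in OCKS-treated than in OS-treated MEFs, at 1.96, 0.862 and 1.93 against 29.7, 56.8 and 56.8, and 0.556, 0.820 and 1.26 in control MEFs, of which 2 of 3 arrays were above background. It was not tested whether this probe reads the Oct4 of the tandem vector. The Sox2 probe gave 11.6, 2.22 and 8.12 in OCKS-treated MEFs and 1.38, 2.65 and 6.34 in OS-treated MEFs. In control MEFs it gave 2.89, 2.63 and 1.86, so neither treated group was above the controls on every array. Whether the Sox2 probe reads the vectors was not tested. The arrays lay on 6 slides, and no slide held both treated and control MEFs, so for those comparisons slide and treatment cannot be told apart.

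Pparg (chr6:115360879-115490404, GRCm38.p6) encodes the nuclear receptor that is required for fat cells to form. It gave scaled signals of 1009, 873 and 1019 in OCKS-treated MEFs, 594, 484 and 895 in OS-treated MEFs and 388, 324 and 386 in PGCs, against 96.1, 127 and 76.4 in control MEFs (replicates 1, 2 and 3). Pparg was thus above every control array in all other groups, and only the OCKS and OS arrays overlapped. The difference from control MEFs was 3.30 ± 0.23 on the log2 scale with OCKS and 2.70 ± 0.23 with OS (SE, n = 3 each), or 9.86-fold and 6.50-fold.

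Cebpa (chr7:35119293-35121928) encodes C/EBPα, a leucine zipper factor that maintains Pparg in the mature fat cell. Its scaled signals were 663, 696 and 922 in OCKS-treated MEFs, 475, 386 and 738 in OS-treated MEFs and 10.8, 12.8 and 12.3 in PGCs, against 28.9, 27.5 and 29.4 in control MEFs. Unlike Pparg, it was lowest in PGCs, with no PGC array reaching the lowest control array. Cebpa was 26.3-fold higher than in control MEFs with OCKS (4.72 ± 0.22 on the log2 scale) and 18-fold with OS (4.17 ± 0.22).

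Promoter sequences were examined because these genes were high on the same arrays, and because C/EBP proteins and PPARγ bind many genes of the fat cell. RefSeq (GRCm38.p6) gave 10 promoters for 7 of the 10 genes, with none matched for Fabp4, Lpl and Mrap, and the 250 bases before each start were searched on both strands. The C/EBP motif TTGCNNAA was found in 3 of the 10 promoters, of Pparg, Plin1 and Cidec, and in 9.56% of 32851 promoters of all genes. The nuclear receptor repeat unit AGGTCA was found in 2 of 10, both of Pparg, against 14% of all promoters. The whole PPAR element, which is that unit repeated with any 1 base between, was found in 0 of 10 and in 0.0335% of all. TATAAA stood in 2 of 10, of Pparg and Cebpa, against 12.4%. The 3 C/EBP promoters and the Cebpa promoter are printed 5′ to 3′ up to the base before the start, with the matches in capitals, TTGCNNAA or its reverse complement in Pparg, Plin1 and Cidec and TATAAA in Cebpa:
Pparg chr6:115421816-115422065 (forward strand): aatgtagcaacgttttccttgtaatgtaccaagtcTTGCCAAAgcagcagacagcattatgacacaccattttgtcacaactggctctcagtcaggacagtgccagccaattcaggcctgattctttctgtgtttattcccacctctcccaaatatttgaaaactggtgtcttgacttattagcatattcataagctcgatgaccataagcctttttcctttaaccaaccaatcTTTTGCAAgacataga
Cebpa chr7:35119043-35119292 (forward strand): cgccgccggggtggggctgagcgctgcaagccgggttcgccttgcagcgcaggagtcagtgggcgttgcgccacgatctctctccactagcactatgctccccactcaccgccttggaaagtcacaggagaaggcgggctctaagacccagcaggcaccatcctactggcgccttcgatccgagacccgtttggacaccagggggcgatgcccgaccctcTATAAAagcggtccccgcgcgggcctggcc
Plin1 chr7:79732777-79733026 (reverse strand): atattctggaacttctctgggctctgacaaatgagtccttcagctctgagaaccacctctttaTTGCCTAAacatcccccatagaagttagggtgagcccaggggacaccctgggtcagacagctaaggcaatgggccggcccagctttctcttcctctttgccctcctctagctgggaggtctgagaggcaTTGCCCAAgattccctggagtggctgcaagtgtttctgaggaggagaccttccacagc
Cidec chr6:113434765-113435014 (reverse strand): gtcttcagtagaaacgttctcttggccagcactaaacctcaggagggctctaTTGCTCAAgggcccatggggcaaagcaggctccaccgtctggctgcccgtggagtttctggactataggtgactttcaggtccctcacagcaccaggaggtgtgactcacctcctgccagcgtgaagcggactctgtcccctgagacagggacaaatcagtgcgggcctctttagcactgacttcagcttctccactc
The Pparg sequence precedes the most downstream of its 3 listed starts, with matches beginning 215 and 16 bases before the start, and in Plin1 they began 187 and 58 bases before it. The Cidec match began 198 bases before an internal start, and the TATAAA of Cebpa 30 bases before the start. A match describes the letters of this window and was not tested as a binding site.

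Adipoq (chr16:23146536-23157968) encodes adiponectin, a hormone that fat cells release and that raises insulin sensitivity. Its scaled signals were 1246, 702 and 1544 in OCKS-treated MEFs, 350.0, 232 and 985 in OS-treated MEFs and 6.04, 5.88 and 6.39 in PGCs, against 10.4, 11.1 and 14.8 in control MEFs. The lowest treated array was far above the highest control array, and the OS arrays spread more widely than the OCKS arrays. Adipoq exceeded control MEFs 92.6-fold with OCKS (6.53 ± 0.47 on the log2 scale) and 36.1-fold with OS (5.17 ± 0.47).

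Retn (chr8:3655770-3659818) encodes resistin, a hormone released by mouse fat cells. It gave 223, 109.9 and 231 in OCKS-treated MEFs, 55.5, 34.5 and 144 in OS-treated MEFs and 27.7, 37.8 and 37.7 in PGCs, against 1.99, 1.35 and 1.27 in control MEFs. Retn was the only member whose OS arrays overlapped with the PGC arrays, since OS replicate 2 lay between PGC arrays. The differences from control MEFs were 6.89 ± 0.48 with OCKS and 5.43 ± 0.48 with OS on the log2 scale, or 119-fold and 43.2-fold. Their size is inexact because the control signals were low, and normexp background correction gave 5.05 and 3.71.

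Cidec, Plin1 and Plin4 encode proteins of the lipid droplet surface. Cidec (chr6:113424634-113435760), whose protein (FSP27) fuses small droplets into large ones, gave 969, 324 and 907 in OCKS-treated MEFs, 139, 115 and 552 in OS-treated MEFs and 0.595, 0.663 and 0.776 in PGCs, against 3.61, 3.52 and 3.91 in control MEFs. It had the widest spread of the 10 genes within both treated groups, and neither treated group reached down to the control arrays. Cidec was 179-fold higher than in control MEFs with OCKS and 56.3-fold with OS at the brighter probe (7.48 ± 0.57 and 5.81 ± 0.57 on the log2 scale). Its dimmer probe gave smaller differences of 5.17 with OCKS and 3.96 with OS.

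Plin1 (chr7:79721164-79732904) encodes perilipin 1, the coat protein that controls access of lipases to the droplet. Its scaled signals were 1069, 577 and 1136 in OCKS-treated MEFs, 404, 300.3 and 828 in OS-treated MEFs and 3.02, 3.07 and 3.12 in PGCs, against 2.62, 2.84 and 3.72 in control MEFs. PGC and control arrays overlapped, and both treated groups stood well apart from them. The differences from control MEFs were 8.20 ± 0.36 with OCKS and 7.27 ± 0.36 with OS, or 294-fold and 154-fold.

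Plin4 (chr17:56100587-56109948) encodes perilipin 4, which coats newly formed droplets. It gave 849, 742 and 1108 in OCKS-treated MEFs, 345, 303 and 703 in OS-treated MEFs and 5.15, 6.31 and 6.30 in PGCs, against 54.6, 68.0 and 61.6 in control MEFs. Plin4 was the only one of the 10 genes whose 4 groups did not overlap at all. It exceeded control MEFs 14.5-fold with OCKS (3.86 ± 0.28 on the log2 scale) and 6.85-fold with OS (2.78 ± 0.28).

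Fabp4 (chr3:10204342-10208616) encodes aP2, the carrier of fatty acids in the fat cell cytoplasm, which macrophages and capillary endothelium also make. It gave 14167, 11705 and 13731 in OCKS-treated MEFs, 10162, 9389 and 12133 in OS-treated MEFs and 0.571, 0.657 and 0.276 in PGCs, against 177, 148 and 118 in control MEFs. PGC replicate 3 was not well above background for this gene, and no treated array came near a control array. The differences from control MEFs were 6.50 ± 0.29 with OCKS and 6.17 ± 0.29 with OS, or 90.3-fold and 72.1-fold.

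Lpl (chr8:68880555-68906932) encodes lipoprotein lipase, the secreted enzyme that frees fatty acids from circulating lipoproteins. Its scaled signals were 2928, 2614 and 3351 in OCKS-treated MEFs, 1521, 1065 and 2706 in OS-treated MEFs and 13.7, 13.5 and 8.33 in PGCs, against 173, 189 and 197 in control MEFs. Control MEFs lay between PGCs and treated MEFs, as they did for Plin4 and Fabp4. Lpl was 15.8-fold higher than in control MEFs with OCKS (3.99 ± 0.31 on the log2 scale) and 8.79-fold with OS (3.14 ± 0.31), and its other probe gave 4.08 and 3.04.

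Mrap (chr16:90738207-90749785) encodes the accessory protein that carries the ACTH receptor MC2R to the cell surface, in the adrenal cortex and in mouse fat cells. It gave 999, 611 and 1068 in OCKS-treated MEFs, 444, 422 and 719.7 in OS-treated MEFs and 11.3, 12.1 and 11.5 in PGCs, against 2.26, 1.88 and 2.05 in control MEFs. Mrap had the widest gap to control MEFs of the 10 genes, 8.72 ± 0.24 with OCKS and 7.96 ± 0.24 with OS on the log2 scale, or 421-fold and 249-fold. Its control signals were low as well, and normexp background correction gave 7.30 and 6.54.

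**Figure D1:**
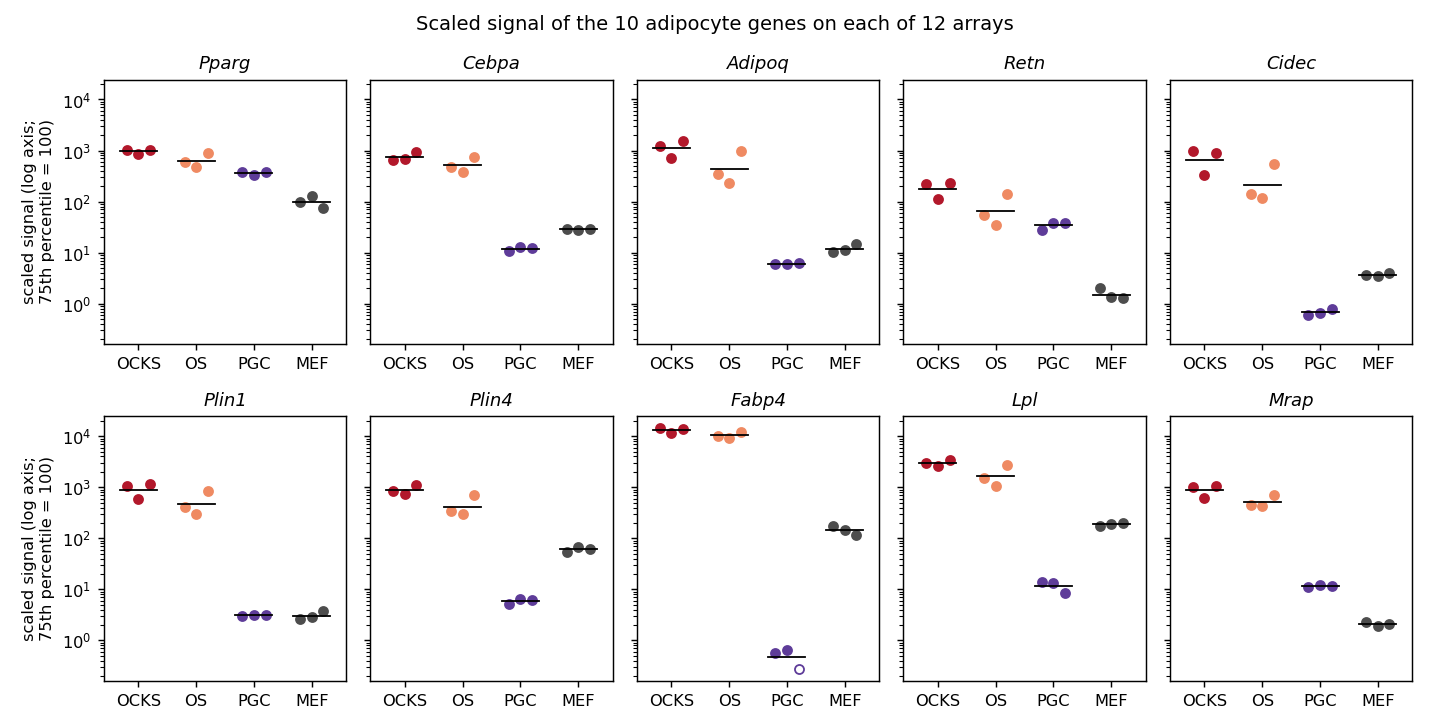
Scaled signal of each of the 10 genes (log axis, 75th percentile of an array = 100) on the 3 arrays of OCKS-treated MEFs, OS-treated MEFs, E15.5 PGCs and control MEFs, with the geometric mean as a line and an open circle for an array not well above background. Treated MEFs lie above control MEFs for all 10 genes, from 9389 to 14167 for Fabp4 and from 34.5 to 231 for Retn, while PGCs lie above control MEFs for some genes and below them for others.

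All 10 genes were past the thresholds upward in both comparisons with control MEFs, against 10.6% of genes tested with OS and 11.1% with OCKS, and this contrast is the one that chose them. The treated arrays of each kind were all above the control arrays for each of the 10 genes, as for 28.3% of all genes with OCKS and 28% with OS. The median difference over the 10 genes was 6.51 with OCKS and 5.30 with OS, beside medians of -0.17 and -0.19 over all genes tested. All 10 had their highest mean in OCKS-treated MEFs and their next in OS-treated MEFs. PGCs came ahead of control MEFs for Pparg, Retn and Mrap and behind them for 6 others. For Plin1 their order turned with the scaling, with differences of 0.02 by the 75th percentile, -0.37 by the median and -0.56 by quantiles.

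The OCKS- and OS-treated MEFs were also compared directly. The vectors differed in build as well as in factors, and the arrays did not show the added factors higher with OCKS: the Klf4 probe gave 535, 890.3 and 578 in OCKS-treated and 847, 754 and 634 in OS-treated MEFs, and the Myc probe 231, 476 and 370.2 in OCKS-treated and 486, 415 and 355 in OS-treated MEFs. It was not tested whether these probes read the vectors. The genes were chosen from the same arrays with this difference already known, so its p-values describe these arrays and are not independent of the choice. No gene passed the thresholds, among the 10 members or among all 15699 genes tested (0% called upward and 0% downward), although 2650 genes (16.9%) had an unadjusted p under 0.05. The members' differences were all above 0, from 0.33 for Fabp4 to 1.67 for Cidec, with a median of 0.89, whereas 51.3% of all genes tested were above 0. At an unadjusted p under 0.05, 9 of the 10 members were higher with OCKS, against 8.76% of all genes. In limma's test with Benjamini-Hochberg adjustment, Plin4 came nearest, with a difference of 1.08 (95% interval 0.45 to 1.71, adjusted p = 0.151). Its 3 OCKS arrays were above its 3 OS arrays, which held for 1 of 10 members and for 10.8% of all genes in this direction.

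Among the other members, the hormone genes Adipoq and Retn were higher with OCKS by 1.36 (0.32 to 2.40) and 1.45 (0.39 to 2.52), with limma adjusted p = 0.200 and 0.188. Cidec and Plin1 gave 1.67 (0.41 to 2.93) and 0.93 (0.13 to 1.73), with limma adjusted p = 0.196 and 0.237. The lipase gene Lpl gave 0.85 (0.17 to 1.53) and Mrap 0.76 (0.23 to 1.29), with limma adjusted p = 0.216 and 0.180. The regulators differed least besides Fabp4, Pparg by 0.60 (0.08 to 1.12) and Cebpa by 0.55 (0.07 to 1.03), with limma adjusted p = 0.242 and 0.243. For Fabp4 the interval ran from -0.32 to 0.97 (limma adjusted p = 0.602). Scaling by the spike-in probes lowered the difference of the median gene to -0.47 and turned Fabp4 to -0.16, and the other 9 stayed above 0. Among those 9, Cebpa came down to 0.07 and Pparg to 0.12, and Cidec remained the highest at 1.19.

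OS and OCKS replicate 1 shared a slide, and there every member was higher with OCKS, from 1.39-fold for Fabp4 to 6.99-fold for Cidec. Over all genes, 53.5% were higher on that OCKS array, with a median difference of 0.03. This sets 1 array against 1 array, and the members moved together, so they are not separate observations. The median ratio over the members was 2.35 there. It was 2.43 between OS replicates 3 and 2, which had the same treatment and also shared a slide. OS replicate 3 was the highest OS array for 10 of 10 members, so leaving it out could only raise their differences. Without it the median of the members' differences was 1.28. Then 8 of the 10 members came to an adjusted p under 0.05 (limma, range 0.00420 to 0.539), as did 777 of 15889 genes (4.89%). With all arrays, 0 members and 8 of 15699 genes (0.051%) did. None of the 10 passed the thresholds without that array either, and 27 of 15889 genes did (0.17%). That array was singled out by the members' own levels, so these counts describe the arrays and are no test of the treatments. With each array left out in turn, the lowest difference was 0.24 for Fabp4, 0.40 for Pparg, 0.91 for Adipoq and 1.25 for Cidec. A p that misses the threshold does not show that the treatments gave the same levels.

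**Figure D2:**
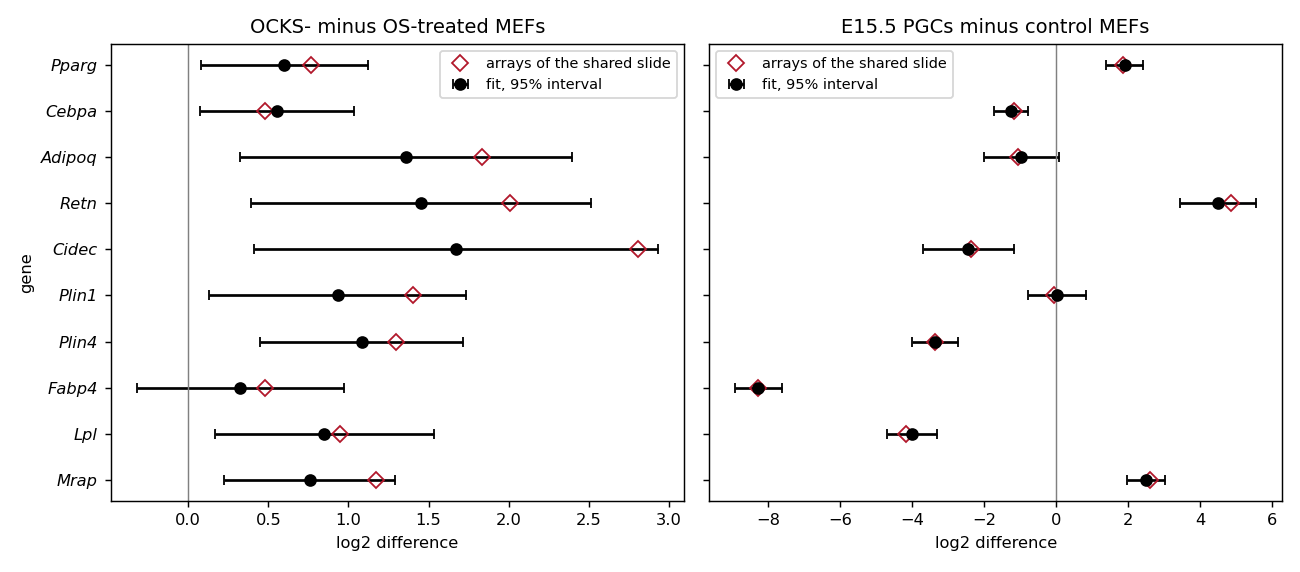
Log2 difference of each gene (point, with its 95% interval from the limma fit of 12 arrays) between OCKS- and OS-treated MEFs, left, and between E15.5 PGCs and control MEFs, right, with open diamonds for the arrays that shared a slide. The left panel shows all 10 points above 0, from 0.33 to 1.67, and the right panel runs from -8.28 for Fabp4 to 4.50 for Retn.

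The treated replicates differed from each other in these genes more than in the median gene. OS replicate 3 was the highest and OS replicate 2 the lowest OS array for 10 of 10 members, whereas OS replicate 3 was highest for 35.9% and OS replicate 2 lowest for 30.9% of all genes. These arrays shared a slide. OS replicate 3 exceeded OS replicate 2 from 1.29-fold for Fabp4 to 4.78-fold for Cidec, with a median ratio of highest to lowest OS array of 2.43, against 1.20 over all genes. Among OCKS arrays, replicate 2 was lowest for 9 of 10 members, against 41.6% of all genes, with Cebpa the exception, and replicate 3 was highest for 8 of 10, against 23.8%. The ratio of the highest to the lowest OCKS array ran from 1.17 for Pparg to 2.99 for Cidec (median 1.62, and 1.22 over all genes). For all other genes that rose, the median ratio was 1.38 with OS and 1.39 with OCKS. For other genes of the fat cell programme that rose, it was 1.61 and 1.49.

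The members moved together in this respect. Over the 6 treated arrays, the deviations of 2 members from their group means had a Pearson r of 0.76 to 0.99 (median 0.95 over 45 pairs), as a description of arrays that share RNA and scaling. Other genes of the fat cell programme that rose with OS leaned the same way, 39 of 59 with their highest value on OS replicate 3 and 38 of 59 with their lowest on OS replicate 2. Of all other genes that rose with OS, 38.5% were highest on OS replicate 3 and 31.1% lowest on OS replicate 2. In control MEFs, the highest and lowest array of a member differed 1.07-fold to 1.67-fold, and replicates 1, 2 and 3 were each highest for some members. These arrays hold RNA of many cells, in which fewer cells of a type and less RNA per cell cannot be told apart.

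**Figure D3:**
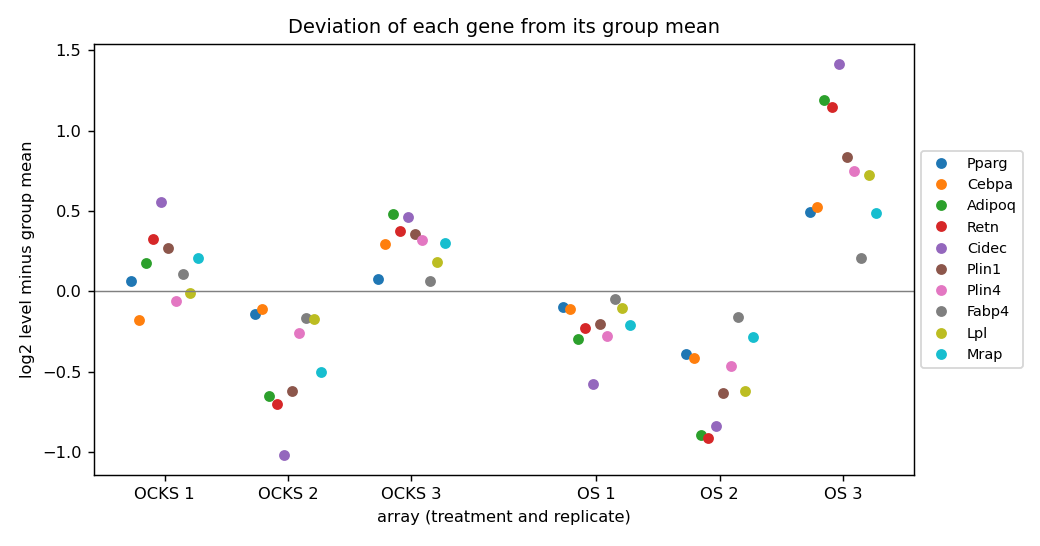
Log2 level of each of the 10 genes minus its group mean on each OCKS and OS array, with 1 colour per gene. All 10 points of OS replicate 3 lie above 0 and all 10 of OS replicate 2 below it, and the points of OCKS replicate 2 lie below 0.

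The PGCs were compared with control MEFs because they are the cell type that the treatments were meant to approach. The members were chosen by differences from these same control arrays, so the p-values here are not independent of that choice. Of the 10 members, 3 rose (Pparg, Retn and Mrap) and 4 fell (Cebpa, Plin4, Fabp4 and Lpl), where 30% and 26% of all 17357 genes tested did so, and 3 did not pass. Retn was higher in PGCs by 4.50 ± 0.48 (limma adjusted p = 6.07e-06), Mrap by 2.50 ± 0.24 (limma adjusted p = 2.68e-06) and Pparg by 1.90 ± 0.23 (limma adjusted p = 2.12e-05). In each case the 3 PGC arrays were above the 3 control arrays, as for 46.4% of all genes. Control signals of Retn and Mrap were low, and normexp background correction gave smaller differences of 2.72 and 1.22. Fabp4 fell by 8.28 on the log2 scale (limma adjusted p = 9.18e-10), with 2 of 3 PGC arrays above background, so that it was tested through the control arrays. Its size is inexact, at -5.20 with normexp background correction. Lpl fell by 4.01 (limma adjusted p = 4.16e-07), and Plin4 fell by 3.38 (limma adjusted p = 9.04e-07).

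Cebpa fell by 1.26 in PGCs (limma adjusted p = 0.000272), and this call was lost, with limma adjusted p between 0.0011 and 0.0017, when any 1 control replicate or PGC replicate 1 or 3 was left out. Cidec gave -2.45 (limma adjusted p = 0.00221) at its brighter probe and -0.20 at the other. It passed on scaling by quantiles, the median or spike-ins. Adipoq gave -0.97 (limma adjusted p = 0.0774), and Plin1 gave 0.02 with overlapping arrays (95% interval -0.78 to 0.82, limma adjusted p = 0.958). On the slide that held replicates 2 and 3 of both groups, the members' differences ran from -8.28 for Fabp4 to 4.85 for Retn, and Pparg gave 1.84. With slide as a fixed block Pparg lost its call (limma adjusted p = 0.00525). Sex and mouse strain differ between these groups and cannot be told apart from cell type. The PGC arrays had 10 of 10 germ cell markers above background, with a summed scaled signal of 16028 to 20673 against 100.3 to 114 in control MEFs. They also had all 14 leukocyte markers above background, summing to 1618 to 2137 against 2873 to 3088 in control MEFs. Itgam alone gave 1291, 1727 and 1617.5 in PGCs and 1659, 1859 and 1424 in control MEFs. The part of leukocytes in the members' levels was not tested.

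Other genes of the fat cell programme were followed through 11 lists of 171 genes, of which 169 have a probe and none is a member. Of 163 tested, 73 rose and 19 fell in OCKS-treated MEFs (44.8% and 11.7%, against 11.1% and 13.7% of all genes), and 59 rose and 21 fell in OS-treated MEFs (36.2% and 12.9%, against 10.6% and 12.4%). In PGCs 31 of 166 rose and 81 fell (18.7% and 48.8%, against 30% and 26%). Between OCKS- and OS-treated MEFs 0 of 162 passed in limma's test, and 38 were higher with OCKS at an unadjusted p under 0.05 (23.5%, against 8.76% of all genes). The lists were made with results of these data known, and the counts are descriptions.

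Among other transcription factors and cofactors, 11 of 21 rose with OCKS and 9 with OS, and 1 fell with each. The early factors Cebpb and Cebpd rose, Cebpb by 1.64 with OCKS and 2.08 with OS and Cebpd by 2.07 and 2.26. The coactivator gene Ppargc1a rose by 3.96 and 3.17, Nr1h3, which encodes the sterol receptor LXRα, by 3.67 and 2.98, and the zinc finger gene Klf15 by 3.57 and 3.14. Rxra, which encodes the partner with which PPARγ binds DNA, gave 0.76 and 0.55 and did not pass. Of 16 genes known to hold adipogenesis back, 6 fell and 1 rose with each treatment. Those that fell included the Notch target Hes1, with differences of -4.44 with OCKS and -4.90 with OS. The kinase-like gene Trib3 (-3.40 and -3.09) and the signal gene Wnt10b (-2.33 and -2.32) fell too. Wnt10b was low with OCKS, at 2.40, 0.920 and 1.48, with 2 of 3 arrays above background. Nr2f2 was the 1 that rose with each treatment, by 1.28 with OS. Dlk1 was above every control array, at 3918, 5722 and 4373 with OCKS and 2001, 1644 and 4301 with OS, against 1063, 1558 and 1565. Its differences of 1.75 with OCKS and 0.82 with OS did not pass. Progenitor markers went both ways, 5 of 12 up and 5 down with each treatment. Cd34 rose by 5.08 with OCKS and 5.51 with OS, while Pdgfrb fell, with differences of -2.42 and -2.13.

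Lipid droplet and lipolysis genes rose in 9 of 14 tested with each treatment and fell in 0. G0s2, which encodes an inhibitor of the lipase ATGL, rose by 5.88 with OCKS and 5.09 with OS, and Pnpla2, which encodes ATGL itself, by 2.51 and 1.85. Lipe, the gene of hormone-sensitive lipase, rose by 4.75 and 4.21, and Plin2, the gene of a droplet coat found in most cells, by 2.80 and 2.95. Cidea, a relative of Cidec that is prominent in brown fat, gave 2.36 and 1.63 and did not pass. Triglyceride synthesis genes rose in 10 of 16 and fell in 0 with OCKS, and rose in 7 of 16 and fell in 1 with OS. Gpd1, which makes glycerol phosphate, led with 7.65 and 6.45. Dgat2, which completes triglyceride, rose by 4.33 and 3.56. In PGCs 8 of these 16 rose, Dgat2 by 3.96 among them, while droplet genes fell in 7 of 15 and rose in 3.

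In fatty acid uptake, 6 of 12 genes rose and 2 fell with each treatment. Angptl4, whose protein inhibits lipoprotein lipase, rose by 5.51 with OCKS and 5.53 with OS, and the fatty acid translocase gene Cd36 by 5.46 and 4.52. Gpihbp1, which anchors lipoprotein lipase on capillaries, gave -0.23 and -0.42, and Lmf1, needed for its folding, -0.03 and -0.22, and neither passed. Of 13 genes of fatty acid synthesis and its glucose supply, 3 rose and 2 fell with each treatment. Fasn, the gene of fatty acid synthase, gave 0.02 with OCKS and -0.51 with OS, and the desaturase gene Scd2 fell (-1.83 and -1.85). The insulin-responsive glucose transporter gene Slc2a4 rose by 3.28 and 2.17.

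Secreted products rose in 10 of 14 with OCKS and 5 of 14 with OS, and 1 fell with each. Cfd (adipsin) rose by 3.77 with OCKS and gave 2.54 with OS (limma adjusted p = 0.00132), and the difference between the treatments itself was 1.22 (limma adjusted p = 0.260). Lep, the gene of leptin, gave 1.38 and 0.48 and did not pass. Among receptors, Mc2r, the partner of Mrap, gave 11.9, 7.97 and 11.7 in OCKS-treated MEFs and 7.13, 4.24 and 9.16 in OS-treated MEFs, and was not well above background on any control array. It was at least 23.4-fold higher with OCKS and at least 14.8-fold higher with OS, and it entered the test only through the treated arrays. These folds set the mean of the treated arrays against the lowest signal well above background on each control array, or the probe's own signal where higher. Mc2r was also not above background in PGCs, where Mrap rose, and Mrap2, the paralogue of Mrap, was above background on all 3 PGC arrays, 1 OCKS array, 2 OS arrays and 2 control arrays.

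Genes of brown and beige fat rose in 7 of 15 with OCKS and 5 of 15 with OS, and 1 fell with each. Ucp1, whose protein uncouples mitochondria in brown fat, was not above background on any control array. It reached 20.1, 4.28 and 13.0 in OCKS-treated MEFs and 6.74, 8.16 and 13.9 in OS-treated MEFs, at least 23.5-fold and 20.7-fold above control MEFs, and also entered the test only through the treated arrays. Fatty acid oxidation genes rose in 8 of 15 with OCKS and 7 of 15 with OS and fell in 0, among them Pdk4, which spares glucose, by 4.02 and 3.90. Of 15 receptor and signalling genes, 3 rose and 1 fell with OCKS, and 2 rose and 2 fell with OS. Over all genes, 11.1% rose with OCKS and 10.6% with OS. Mc2r and the adenosine receptor gene Adora1 (4.58 and 3.96) rose with each.

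**Figure D4:**
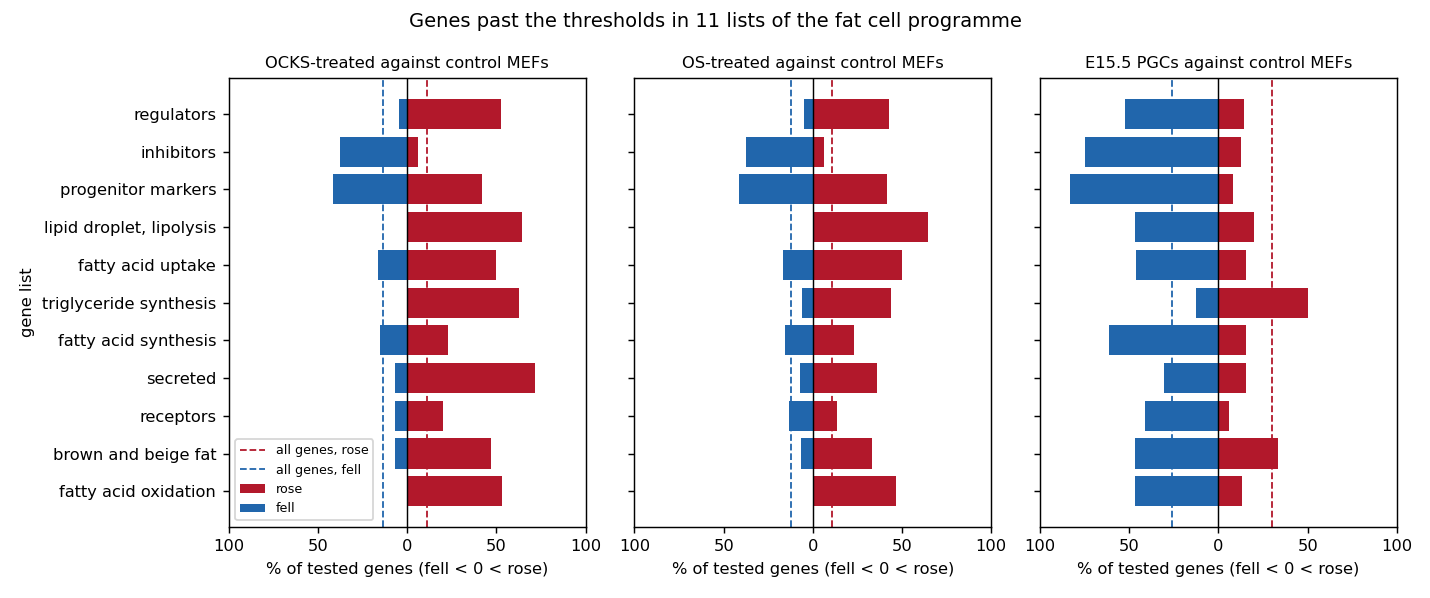
Percentage of the tested genes of 11 lists that rose (right of 0) or fell (left of 0) past the thresholds in OCKS-treated, OS-treated and E15.5 germ cell samples, each against control MEFs, with dashed lines for all genes tested. Droplet genes reach 9 of 14 risen and 0 fallen with each treatment, inhibitors 6 of 16 fallen, and fatty acid synthesis genes 3 of 13 risen and 2 fallen.

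Markers of other cells were read beside these results. Of 14 leukocyte markers, 13 fell with OCKS and 12 with OS and none rose, with summed scaled signals of 617 to 783 in OCKS-treated MEFs and 521 to 640 in OS-treated MEFs, against 2873 to 3088 in control MEFs. Itgam was the largest part of the leukocyte sum in each group. All 14 were above background on all 3 control arrays, while 8 were so on all 3 OCKS arrays and 10 on all 3 OS arrays. The differences with OCKS ran from -7.09 to -0.54, the smallest being that of Cd14, which did not pass. Fabp4 and Lpl are also expressed by macrophages. Of the endothelial markers, 1 rose and 1 fell of 7 tested with OCKS, and 2 rose and 1 fell of 9 tested with OS. Egfl7 rose by 1.56 with OCKS and 1.72 with OS, Cdh5 rose by 2.66 with OS, and Kdr fell (-1.03 and -1.16). All 10 endothelial markers summed to 934 to 1067 with OCKS and 1029 to 1159.6 with OS, against 1199 to 1348 in control MEFs. Most of these sums came from Kdr, Flt1 and Egfl7. Fibroblast markers fell in 4 of 10 and rose in 1 with each treatment, summing to 33691 to 53720.0 with OCKS and 37222 to 53766 with OS, against 60957 to 90302 in control MEFs. All 10 fibroblast markers were above background on every treated array. The part of these shifts in the members' levels was not tested.

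The genes whose pattern was most like that of the 10 members were found by Pearson r with the mean of their standardised levels over the 12 arrays, among 17541 genes. They were G0s2, Abhd15, Cd36, Wfdc21, Ppp2r1b, Ebf3, Aox3, Gpd1, Ltc4s and Rab37, with r of 0.995 to 0.998. The 12 arrays fall into separate groups, so r mainly follows the treated against the other arrays. G0s2, for example, gave 486, 401 and 605 in OCKS-treated MEFs, 247, 183 and 495 in OS-treated MEFs and 5.62, 5.52 and 4.95 in PGCs, against 7.16, 7.92 and 10.1 in control MEFs. It was highest on OS replicate 3, like all 10 members, and on OCKS replicate 3, like 8 of them. Of the members themselves, Plin1 and Adipoq followed the mean of the other 9 most closely (r of 0.996 each), and Pparg and Retn, which rose in PGCs, least (0.76 and 0.69).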

How the data were processed

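RNA of 12 mouse samples was hybridized to single-colour Agilent arrays. The authors deposited the scanner output of each array, made with Agilent Feature Extraction 10.7.3.1, and the intensity used here is the background-subtracted and detrended signal of each spot, not normalized between arrays. A table of log2 values was deposited as well. Of its 12 columns, 10 match the scanner output and served as an alternative, and 2 PGC columns do not and were not used. Its normalization is not given in the sources used here.

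Here 92 uneven probes of 39429 were left out, the signal was taken to log2 and the 75th percentile of the array was subtracted. RefSeq accessions named 25983 of 39337 probes as 19711 genes, 5247 with several probes, and the brightest probe stood for a gene. The 75th percentile of the signal was 1147 to 2925 per array (median background 23 to 33.5), with precision set by the number of arrays. limma 3.58.1 in R 4.3.3 was fitted to all 12 arrays without covariates, and a gene was tested where every array of either group compared had it well above background. The fit was tried on simulated arrays. Tables and plots were made in Python 3.11.15 (numpy 2.4.6, pandas 2.3.3) and matplotlib 3.10.9.

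The members and lists were chosen with earlier results of these data known. The other genes named are up to 5 per list and comparison with the largest differences past the thresholds, and known partners of the members. Also named are the 10 genes most alike, and Dnmt1, Pou5f1, Sox2, Klf4 and Myc. Dlk1 was added because it was higher, unlike the inhibitors that fell. The alternatives were quantile normalization, normexp (offset 50, on median spot intensities, as mean intensities are not among the columns used) with quantile normalization, scaling by the median, by detected probes or by spike-in probes, no filter and a stricter filter on dim probes, the mean of a gene's probes, a fit of the 2 groups alone, a block for replicate number or for slide, other thresholds, the value table, and leaving out each array. ESCs and the male PGCs were not used here.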

Additional observations from a re-analysis of the deposited data

How the results depend on the processing

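All 10 members were past the thresholds upward against control MEFs with OCKS and with OS under every alternative run and without each array in turn (10 to 10), and 0 fell (0 to 0). Between OCKS and OS, the members called stayed at 0 (0 to 0 in each direction), and of the pathway genes 0 to 1 rose and 0 to 0 fell. In PGCs against control MEFs, 3 members rose (3 to 3 without an array) and 4 fell (3 to 5). Pathway genes that rose numbered 66 to 75 with OCKS, 50 to 61 with OS and 28 to 33 in PGCs without an array, and those that fell 17 to 21, 16 to 23 and 77 to 83. With spike-in scaling, 10 pathway genes fell with OCKS and 7 with OS, and with only 2 groups in the fit 12 fell with OCKS. Spike-in scaling moved the median of all genes to 0.20 with OCKS and 0.66 with OS, against -0.17 and -0.19. With the deposited value table, which has 1 usable PGC array, 19 pathway genes rose in PGCs, and the cause was not tested. Of the 10 genes most like the members, 1 was shared when Spearman's rho replaced Pearson's r and 7 with spike-in scaling. No call changed direction. Among differences that did not pass, spike-in scaling turned Fabp4 to -0.16 between OCKS and OS, and Plin1 in PGCs turned to -0.27 with normexp, -0.29 with spike-ins, -0.37 with the median and -0.56 with quantiles.

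Deviations of same-numbered arrays correlated at -0.34 to 0.51 over 14319 genes, highest for replicate 1 of PGCs and control MEFs, and in no comparison above 0.1 for all 3 numbers, so the number was not taken to pair them. With the replicate block, 71 pathway genes rose and 19 fell with OCKS, 58 and 19 with OS and 32 and 81 in PGCs, and the members' counts were 10, 10, 0 and, in PGCs, 3 risen and 4 fallen. With slides as a fixed block 2 members rose and 5 fell in PGCs. Values near the background, such as Cidec and Fabp4 in PGCs, are the least exact: normexp gave -0.92 and -5.20 for them, against -2.45 and -8.28. For Retn and Mrap in PGCs, where the control signals were low, it gave 2.72 and 1.22, against 4.50 and 2.50. Rises from low control signals were smaller too, with 5.05 for Retn, 7.08 for Plin1 and 6.49 for Cidec with OCKS.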
